A study of Arabidopsis thaliana with 48 samples.

Results

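The transcripts described here belong to the CBF cold-response pathway of *Arabidopsis thaliana*, measured by RNA sequencing in excised leaves. The 10 genes are *ICE1* (AT3G26744), *CBF1* (AT4G25490), *CBF2* (AT4G25470), *CBF3* (AT4G25480), *COR15A* (AT2G42540), *COR15B* (AT2G42530), *KIN1* (AT5G15960), *KIN2* (AT5G15970), *COR47* (AT1G20440) and *RD29A* (AT5G52310), chosen by locus identifier from a table of 34262 genes. All 10 were present in the table and all 10 passed the filter on low values, a mean of 1 CPM, where CPM is a gene's count scaled to a common library size. The 4th rosette leaves of 21-day-old Col-0 plants had been excised, floated on MES buffer and kept in the dark at 16 °C for 24 h, and were then held in continuous light at 22 °C. The labels call the treatment dark and cold, and all libraries share it: no attached leaf, no untreated leaf and no leaf held at another temperature is among them. Leaves were sampled every 0.5 h from 19.5 to 27 h, which gave 16 time points with 3 replicates each (48 libraries). The labels count these hours after the treatment, and the methods count them after the pre-treatment. On a plain reading they run from the end of the dark and cold period, at the return to light. Neither source states the starting point in other words. Whether the 3 replicates were separate plants or plates is not stated, and the p-values below therefore reflect the spread among these libraries only, part of which may be technical.

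ICE1 is a MYC-type basic helix-loop-helix protein that is already present in warm plants and, once activated by cold, binds the *CBF3* promoter. The CBF proteins (also DREB1) are AP2/ERF transcription factors whose transcripts accumulate soon after a drop in temperature and whose cold response is gated by the circadian clock. They bind the C-repeat or dehydration-responsive element (CRT/DRE) and so raise cold-regulated genes. Those genes encode hydrophilic, protective proteins: COR15A and COR15B in the chloroplast stroma, the small KIN1 and KIN2 proteins, the dehydrin COR47, and RD29A, which also responds to drought, salt and abscisic acid.

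A library held 23572988 to 38763552 counted reads (median 30954455). Of the marker genes checked, those of leaf photosynthesis summed to between 17250 and 80910 CPM per library, while the 3 root markers summed to 4.52 to 27.3 CPM. Of these *RHD6* and *COBL9* stayed under the 1 CPM filter, and *PYK10* passed it and differed between time points (adjusted p = 0.00664, edgeR). Libraries of a time point did not always resemble each other, and 26 of 48 were closest, over 11460 genes, to a library of another time point. The 22.5 h replicate 1 (closest to the 21 h replicate 2, r = 0.824) and the 24 h replicate 3 (closest to the 25.5 h replicate 1, r = 0.8) correlated with their own partners at -0.477 and -0.0801 on average. That average alone does not single out these 2 libraries. The 25 h replicate 3 had a lower one (-0.129) than the 24 h replicate 3, and the 22.5 h replicate 3 had -0.0722. These 2 also differ from their partners in most of the 10 genes themselves, as described below. They are kept under their labels, and the counts of the 10 genes below are given with and without these 2 libraries.

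The sites that the CBF proteins recognise can be read directly upstream of the targets. The core CCGAC, searched on both strands in the 500 bases before the start codon, occurred in 6 of the 10 genes, and these were *COR15A*, *COR15B*, *KIN1*, *KIN2*, *COR47* and *RD29A*. Of 27443 protein-coding genes, 23.4% hold it in the same window. All matches in the 6 genes read in the direction of the gene. They are shown with 10 flanking bases on each side, from RefSeq's TAIR10.1, 5′ to 3′ along the gene, with the core in capitals.
*COR15A*, 443 bases before the start codon: aacttgttggCCGACatacatttgt
*COR15A*, 266 bases before: aatttcatggCCGACctgctttttt
*COR15B*, 265 bases before: aacttgatggCCGACctcttttttc
*KIN1*, 178 bases before: taaatagctaCCGACataaggcaaa
*KIN2*, 185 bases before: taaaaagctaCCGACataaggcaaa
*COR47*, 268 bases before: tattcatctaCCGACttcaagaaat
*RD29A*, 352 bases before: tagacatggaCCGACtactaataat
*RD29A*, 302 bases before: aaatatcataCCGACatcagtttga
*RD29A*, 245 bases before: agatatactaCCGACatgagttcca
*RD29A*, 208 bases before: aaagatcaagCCGACacagacacgc
These windows lie at chr2:17712395-17712419 and chr2:17712218-17712242 (*COR15A*, minus strand), chr2:17710124-17710148 (*COR15B*, minus strand), chr5:5209804-5209828 (*KIN1*, plus strand), chr5:5211771-5211795 (*KIN2*, plus strand) and chr1:7085918-7085942 (*COR47*, minus strand). Those of *RD29A*, on the plus strand, start at 21240567, 21240617, 21240674 and 21240711 on chromosome 5. The annotation places the distal *COR15A* site and the 3 distal *RD29A* sites before the transcript start and the others in a 5′ UTR exon.

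The *CBF* genes carried other motifs in that window. The G-box CACGTG, a site for bHLH and bZIP factors, was present before *CBF1* and *CBF2*. *CBF3* held at a similar distance only ACGTG, the core of the abscisic acid responsive element, which is contained in every G-box. *CBF2* and *CBF3* each held AAATATCT, the core of the evening element, and are listed under that name below. The full element, AAAATATCT, is bound by clock MYB factors and has a further A in front. The *CBF3* stretch has that A and the *CBF2* stretch does not. The stretches are shown so that the 3 genes can be compared, with the motif in capitals.
*CBF1*, G-box, 275 bases before the start codon: atgtactataCACGTGtcattcacag
*CBF2*, G-box, 251 bases before: gtttcttatcCACGTGgcattcacag
*CBF3*, ACGTG, 242 bases before: tgtatagtttACGTGgcattaccag
*CBF2*, evening element, 200 bases before: acaaatatccAAATATCTtccggccaat
*CBF3*, evening element, 189 bases before: tttgcctctaAAATATCTtccgccatta
All 5 are on the minus strand of chromosome 4, at chr4:13022822-13022847, chr4:13016322-13016347, chr4:13019231-13019255, chr4:13016269-13016296 and chr4:13019175-13019202. Across all 10 genes, 6 held a G-box, 9 the ACGTG core and 6 the AAATATCT core, which in *KIN1* as in *CBF2* lacks the further A. The shares among all genes were 9.34%, 34.9% and 8.27%. A match describes letters in the window and is no measure of binding.

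**Figure D1:**
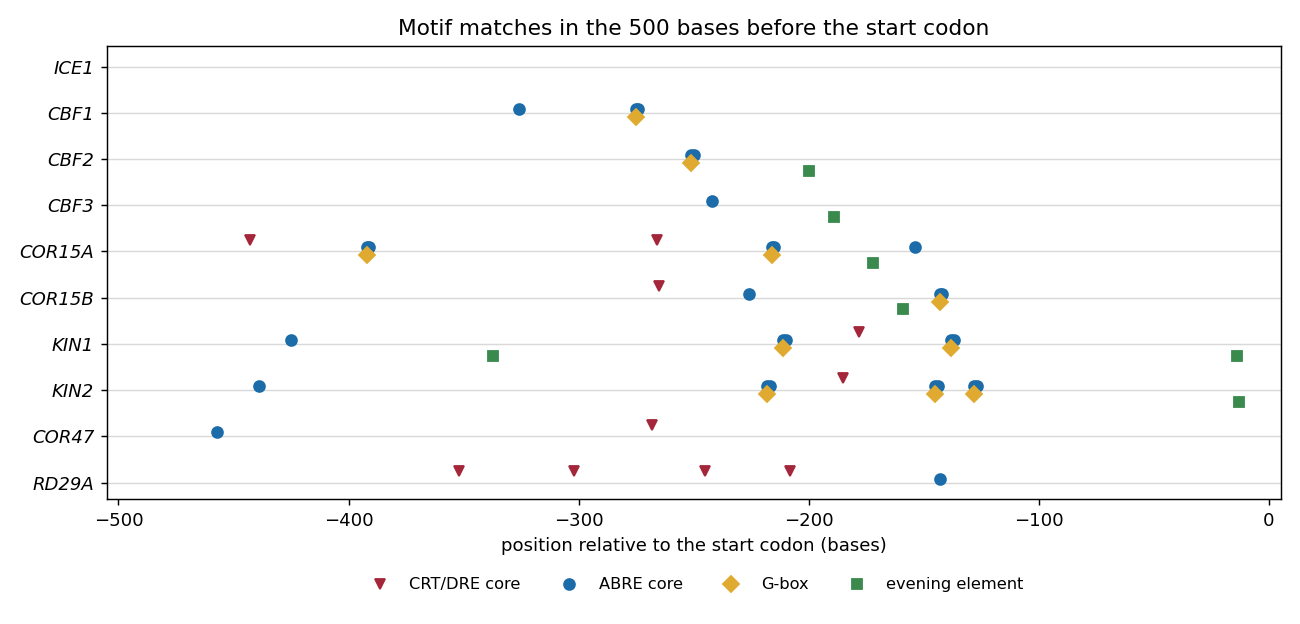
Positions of the 4 motifs in the 500 bases before the start codon of each gene (x axis, bases relative to the start codon, 1 row per gene, symbols by motif). The CRT/DRE core appears before the 6 cold-regulated genes, and G-boxes sit on pairs of overlapping ACGTG cores. The evening element was searched as its core AAATATCT.

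Transcript levels of 9 of the 10 genes differed between time points (edgeR's quasi-likelihood test, adjusted p from 1.09e-05 for *COR15B* to 0.016 for *ICE1*), as did 63.8% of all 17568 genes tested. *KIN1* was the exception (adjusted p = 0.0858). Without the 2 libraries above, all 10 differed, against 70.5% of genes. Variation faster than 2 h was called for the same 9 genes (35.6% of all genes), and for 10 without the 2 libraries (41.6%). Variation with periods of 2 to 5 h was called for *CBF1*, *CBF2*, *CBF3* and *COR15B* (adjusted p from 0.0269 to 0.0379), 4 of 10 genes against 6.56% of all genes. It was called for 9 of 10 without the 2 libraries, against 31% of all genes. The count changed when single libraries were left out. It was 0 without the 21 h replicate 1 or 2, the 23 h replicate 1 or the 25.5 h replicate 1 or 2. It was 1 without the 21 h replicate 3, the 23.5 h replicate 2 or 3 or the 26.5 h replicate 3. It was 2 without the 20 h replicate 2, the 22 h replicate 2 or the 25.5 h replicate 3, and 8 without either of the 2 libraries above. The share of all genes called in each of these fits is not given here. These counts therefore cannot be read as particular to the 10 genes.

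*ICE1*, the regulator upstream of *CBF3*, was the steadiest of the 10. Its level lay between 18.6 and 27.3 CPM over the 48 libraries (median 24.1), and its highest time point mean was 1.28 times its lowest. The lowest mean was at 21 h, with 21.6, 18.6 and 21.4 CPM, against 27.3, 24.6 and 24.2 CPM at 20.5 h. No library at 21 h reached those of 20.5 h, and the step was called (log2 -0.30, SE 0.0814, adjusted p = 0.0384, edgeR). The adjusted p was 0.00979 when the 2 libraries were left out. Scaled by library totals alone, the step was not called (adjusted p = 0.273), nor without a filter on low counts (0.0792), nor with any 1 of the 3 replicate numbers left out (adjusted p from 0.0857 to 0.45). It was also lost without the 20.5 h replicate 1 (0.157) or 2 (0.0699), the 21 h replicate 1 (0.0586), 2 (0.172) or 3 (0.0576), the 21.5 h replicate 1 (0.05) or the 22 h replicate 2 (0.0502).

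The 3 *CBF* genes were weakly expressed at the start of the series. At 19.5 h *CBF1* had 0, 0.306 and 0.159 CPM, from 0, 8 and 5 reads, and the empty library allows up to 0.126 CPM at 3 counts. *CBF2* had 0.295, 0.268 and 0.191 CPM and *CBF3* 0.421, 0.65 and 0.414 CPM at that time. All 3 genes were therefore measured on few reads before 21 h.

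The largest rise of *CBF3* came within 1 half-hour step. It had 12.2, 10.2 and 13.8 CPM at 21 h, against 0.488, 0.344 and 1.16 CPM at 20.5 h. Every 21 h library was above every 20.5 h library, and the means differed 18.2-fold (log2 4.19, SE 0.924, adjusted p = 0.0151, edgeR). *CBF2* had 4.43, 4.29 and 4.36 CPM at 21 h, against 0.244, 0.56 and 0.758 CPM at 20.5 h. Its libraries did not overlap either, but the step missed the threshold (log2 3.06, SE 0.878, adjusted p = 0.0524). *CBF1* had 1.55, 2 and 1.35 CPM at 21 h, against 0.0814, 0.258 and 0.399 CPM at 20.5 h (log2 2.73, SE 0.92, adjusted p = 0.1). The 2 libraries belong to neither time point and enter only through the shared spread. When they were left out the adjusted p were 4.36e-08 for *CBF3*, 3.97e-06 for *CBF2* and 0.00322 for *CBF1*. These smaller values depend on that choice. The 2 libraries differ from their partners in these same genes, so dropping them narrows the spread used by the test.

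The *CBF* transcripts were low again by 22 h. *CBF3* had 0.285, 0.321 and 0.672 CPM there, against 1.98, 3.24 and 8.8 CPM at 21.5 h (log2 -3.39, SE 0.944, adjusted p = 0.0455, with 1.3% of genes called lower at this step). *CBF3* thus returned at 22 h to the level it had at 19.5 and 20.5 h. *CBF2* and *CBF1* had means of 0.602 ± 0.303 and 0.661 ± 0.301 CPM at 22 h (SD, n = 3), against 3.39 ± 1.63 and 2.54 ± 1.74 CPM at 21.5 h, and their steps were called only without the 2 libraries (adjusted p = 7.58e-05 and 0.0162). In that fit 5 of the 10 genes fell at 22 h, against 4.43% of all genes.

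A later high level was found at 24 to 24.5 h. At 24 h *CBF3* had 10.4 and 14.7 CPM in replicates 1 and 2 and 0.344 CPM in replicate 3, and at 24.5 h it had 3.42, 6.15 and 11.6 CPM. *CBF1* was highest of all time points at 24.5 h, with 3.29, 5.61 and 4.46 CPM. All 3 of its libraries at 24.5 h were above its 3 libraries at 21 h. By 25 h *CBF1* had 0.718, 0.375 and 0.295 CPM (log2 -3.25 against 24.5 h, SE 0.777, adjusted p = 0.0227) and *CBF3* 0.442, 0.749 and 0.712 CPM (log2 -3.44, SE 0.884, adjusted p = 0.0321). At this step 0.564% of all genes were called lower. *CBF2* had a mean of 0.665 ± 0.169 CPM at 25 h, against 4.17 ± 1.58 CPM at 24.5 h (SD, n = 3), with an adjusted p of 0.0718. Smaller highs followed at 26 and 27 h, where *CBF2* averaged 2.56 ± 0.832 and 2.81 ± 0.573 CPM, with 1.58 ± 0.924 CPM between them at 26.5 h. None of the steps after 25 h was called with all libraries. When the 2 libraries were left out, 4 of the 10 genes rose at 26 h (*CBF1*, *CBF2*, *CBF3* and *COR15B*, against 5.09% of all genes) and 5 at 27 h (*CBF1*, *CBF3*, *COR15B*, *KIN2* and *RD29A*, against 1.33%).

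**Figure D2:**
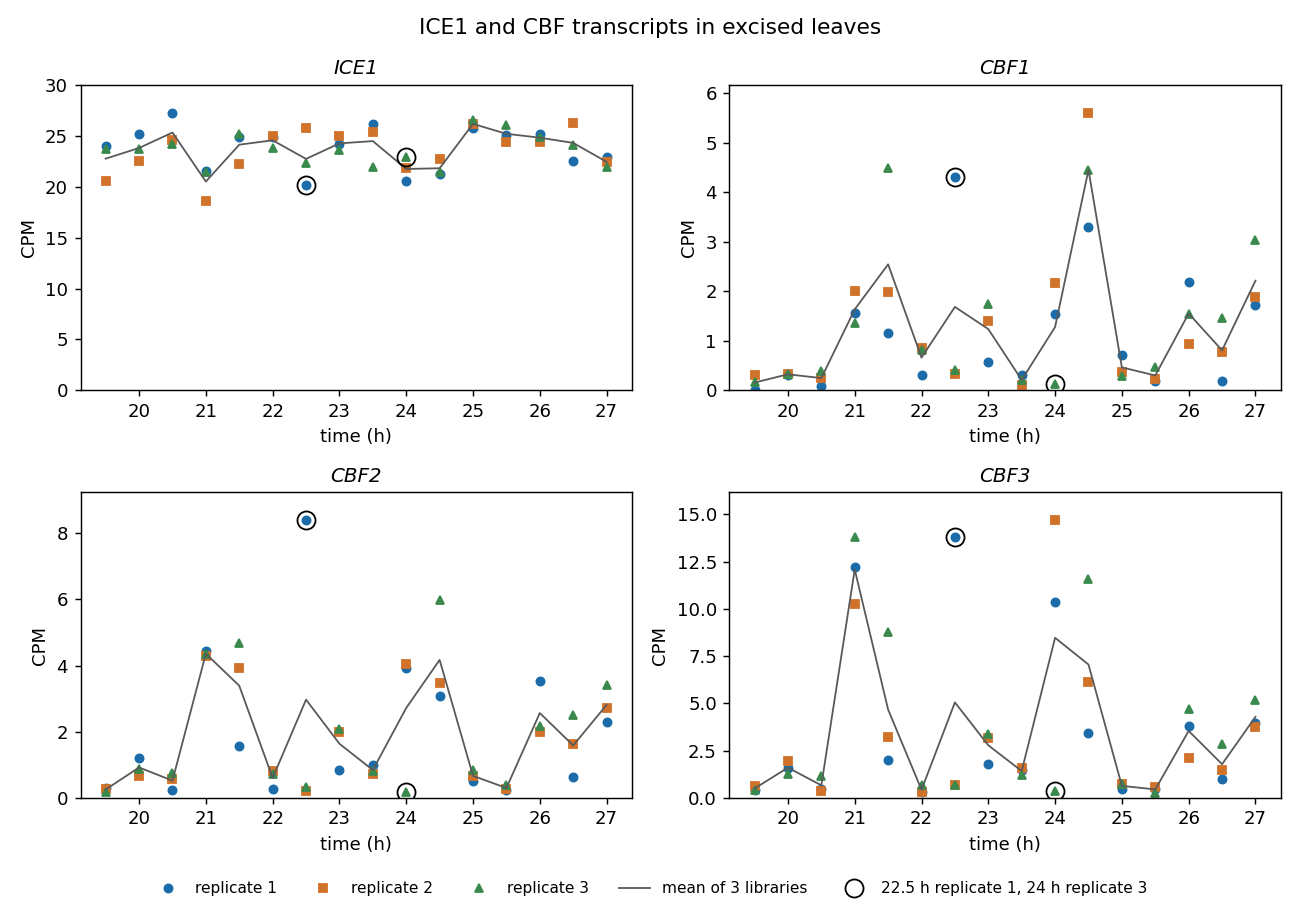
CPM of *ICE1*, *CBF1*, *CBF2* and *CBF3* (y axes) by time in hours (x axis) in each library, with symbols for the replicates, a line for the mean of 3 libraries, and rings on the 22.5 h replicate 1 and the 24 h replicate 3. The means of the *CBF* genes are higher at 21 h and at 24 to 24.5 h than at 22 and 25 h. Those of *CBF1* are highest at 24.5, 21.5 and 27 h. *ICE1* stays between 18.6 and 27.3 CPM.

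The composition of the *CBF* pool differed between time points at which the genes were high. At 21 h *CBF3* gave 62% to 70.7% of the reads of the 3 genes and *CBF1* 6.94% to 12.1%. At 24 h *CBF3* gave 65.5% and 70.2% in replicates 1 and 2, where the genes were high, and *CBF1* 9.68% and 10.4%, as at 21 h. At 24.5 h *CBF3* gave 34.9% to 52.6% and *CBF1* 20.2% to 36.8%. The ranges at 24.5 h and 21 h do not overlap for either gene, which is a description with no test. The coding sequences of *CBF1*, *CBF2* and *CBF3* are 85% to 86.7% identical and share runs of 33 to 68 bases, so short reads from those runs could be left out or misplaced.

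Of the 6 cold-regulated targets, 5 rose at 21 h, and *COR47* did not pass. *RD29A* had 339, 463 and 681 CPM at 21 h, against 41.5, 16.5 and 35.5 CPM at 20.5 h. The means differed 15.9-fold (log2 3.99, SE 0.759, adjusted p = 0.00672), the smallest adjusted p of the 10 genes at this step. *COR15B* had 20.7, 24.3 and 34.4 CPM at 21 h, against 1.46, 1.42 and 1.68 CPM at 20.5 h (log2 4.11, SE 0.921, adjusted p = 0.0163). On the log2 scale these rises lie within the SE of that of *CBF3*. *COR15A* had 15, 26.4 and 30 CPM at 21 h, against 4.35, 2.84 and 3.27 CPM at 20.5 h (log2 2.75, SE 0.734, adjusted p = 0.0375). *KIN2* had 272, 383 and 330 CPM at 21 h, against 55.4, 43.7 and 42.7 CPM at 20.5 h (log2 2.80, SE 0.646, adjusted p = 0.019). In their means *COR15A* changed 6.82-fold and *KIN2* 6.94-fold.

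The remaining targets moved less. *KIN1* had 3.74, 5.43 and 3.47 CPM at 21 h, against 1.83, 0.603 and 1.76 CPM at 20.5 h (log2 1.59, SE 0.406, adjusted p = 0.0307). *COR47*, the dehydrin, had 330, 443 and 357 CPM at 21 h, against 170, 151 and 125 CPM at 20.5 h (log2 1.35, SE 0.421, adjusted p = 0.0752). Its libraries did not overlap although the step missed the threshold.

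At this step 6 of the 10 genes (*CBF3*, *COR15A*, *COR15B*, *KIN1*, *KIN2* and *RD29A*) rose, against 5.12% of all genes, and 1 (*ICE1*) fell, against 5.23%. All but *ICE1* rose, and *ICE1* fell, when the 2 libraries were left out (9 and 1 genes, against 8.61% and 9.92% of all genes). The 3 libraries at 21 h were all above those at 20.5 h for 9 of the 10 genes, as for 19.6% of genes tested, and all below for 1 (22.4%). The median log2 difference of the 10 genes was 2.78, beside -0.0126 over all genes. Without replicate 1 or without replicate 2 none of the 6 rises was called, with log2 differences from 1.02 to 4.47. *KIN1* was not called without replicate 3 either (adjusted p = 0.0651). Leaving out the 20.5 h replicate 2 ended the calls of *CBF3* (adjusted p = 0.0544), *COR15A* (0.108), *KIN1* (0.131) and *KIN2* (0.0603). Leaving out the 20.5 h replicate 1 ended those of *CBF3* (0.051), *COR15A* (0.0715) and *COR15B* (0.051), and leaving out the 21 h replicate 2 those of *COR15A* (0.0702) and *KIN1* (0.0967). *COR15A* also lost its call without the 20.5 h replicate 3 (0.0848) or the 21 h replicate 3 (0.0882). The call of *RD29A* held when any 1 library was left out.

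**Figure D3:**
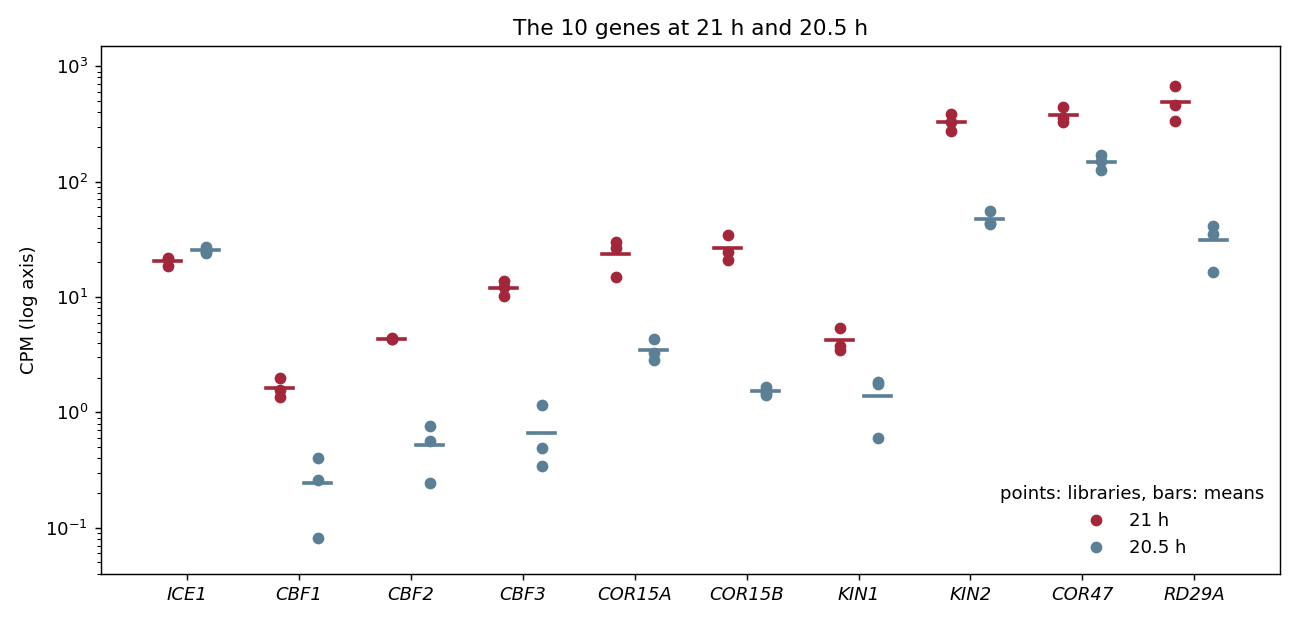
CPM on a log axis of the 10 genes in the 3 libraries at 21 h (left of each pair) and at 20.5 h, with bars at the means. The 2 times do not overlap for any gene, and *ICE1* alone is lower at 21 h (20.5 ± 1.67 CPM, against 25.4 ± 1.7 CPM at 20.5 h).

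Markers of the leaf and its cell types moved too between these times. The 4 photosynthesis markers summed to 46490 to 55220 CPM at 21 h, against 65490 to 76640 CPM at 20.5 h, and 2 of them fell (5.23% of all genes). The 4 guard cell markers summed to 41.5 to 45.2 CPM at 21 h, against 51.1 to 53.5 CPM at 20.5 h, and 1 of them fell. Sums for epidermis (345.4 to 368.1 CPM at 21 h, 277.6 to 346.6 CPM at 20.5 h) and vasculature (356.3 to 410.4 CPM at 21 h, 364.4 to 518.2 CPM at 20.5 h) overlapped. Their part in the results was not tested, and in whole leaves fewer cells of a type cannot be told apart from less RNA per cell.

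The targets differed in their level at 22 h, although none of their steps at 21.5 or 22 h was called with all libraries (adjusted p from 0.0618 to 0.924) and no test compared them with each other. At 22 h *COR15B* had 1.14, 0.892 and 0.756 CPM, 0.0351 of its mean at 21 h, and *RD29A* 67.1, 32.6 and 26.3 CPM, 0.085 of it. *COR47* still had 178, 222 and 250 CPM at 22 h, 0.575 of its mean at 21 h. No step of *COR47* was called with all libraries. The 3 libraries at 22 h were all below those at 21 h for 8 of the 10 genes (20.4% of all genes), the exceptions being *KIN1*, which overlapped, and *ICE1*, which was higher (as were 23.8% of all genes).

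The 24 h samples divided the targets as they divided *CBF3*. *RD29A* had 444 and 693 CPM in replicates 1 and 2 and 46.5 CPM in replicate 3, against 54.1, 77.5 and 56.3 CPM at 23.5 h. *COR15B* had 17.8 and 22.2 CPM, and 1.09 CPM in replicate 3, against 1.9, 1.27 and 1.02 CPM at 23.5 h. Both steps were called even with replicate 3 included (*RD29A* log2 2.68, SE 0.716, adjusted p = 0.0378, *COR15B* log2 3.37, SE 0.89, adjusted p = 0.0362, with 0.934% of all genes called higher). In the fit that leaves out the 2 libraries 8 of the 10 genes rose at 24 h (3.58% of all genes), all but *ICE1* and *KIN1*. Levels were lower again at 25 h, where *KIN2* had 42.5, 41.1 and 22 CPM, against 97.6, 169 and 243 CPM at 24.5 h (log2 -2.29, SE 0.636, adjusted p = 0.0454). For 8 of the 10 genes the 3 libraries at 25 h were all below those at 24.5 h (11% of all genes), while *ICE1* was above (13.7%) and *KIN1* overlapped. Of the 8 falls, 3 were called (*CBF1*, *CBF3* and *KIN2*), or 8 without the 2 libraries (2.79% of all genes).

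**Figure D4:**
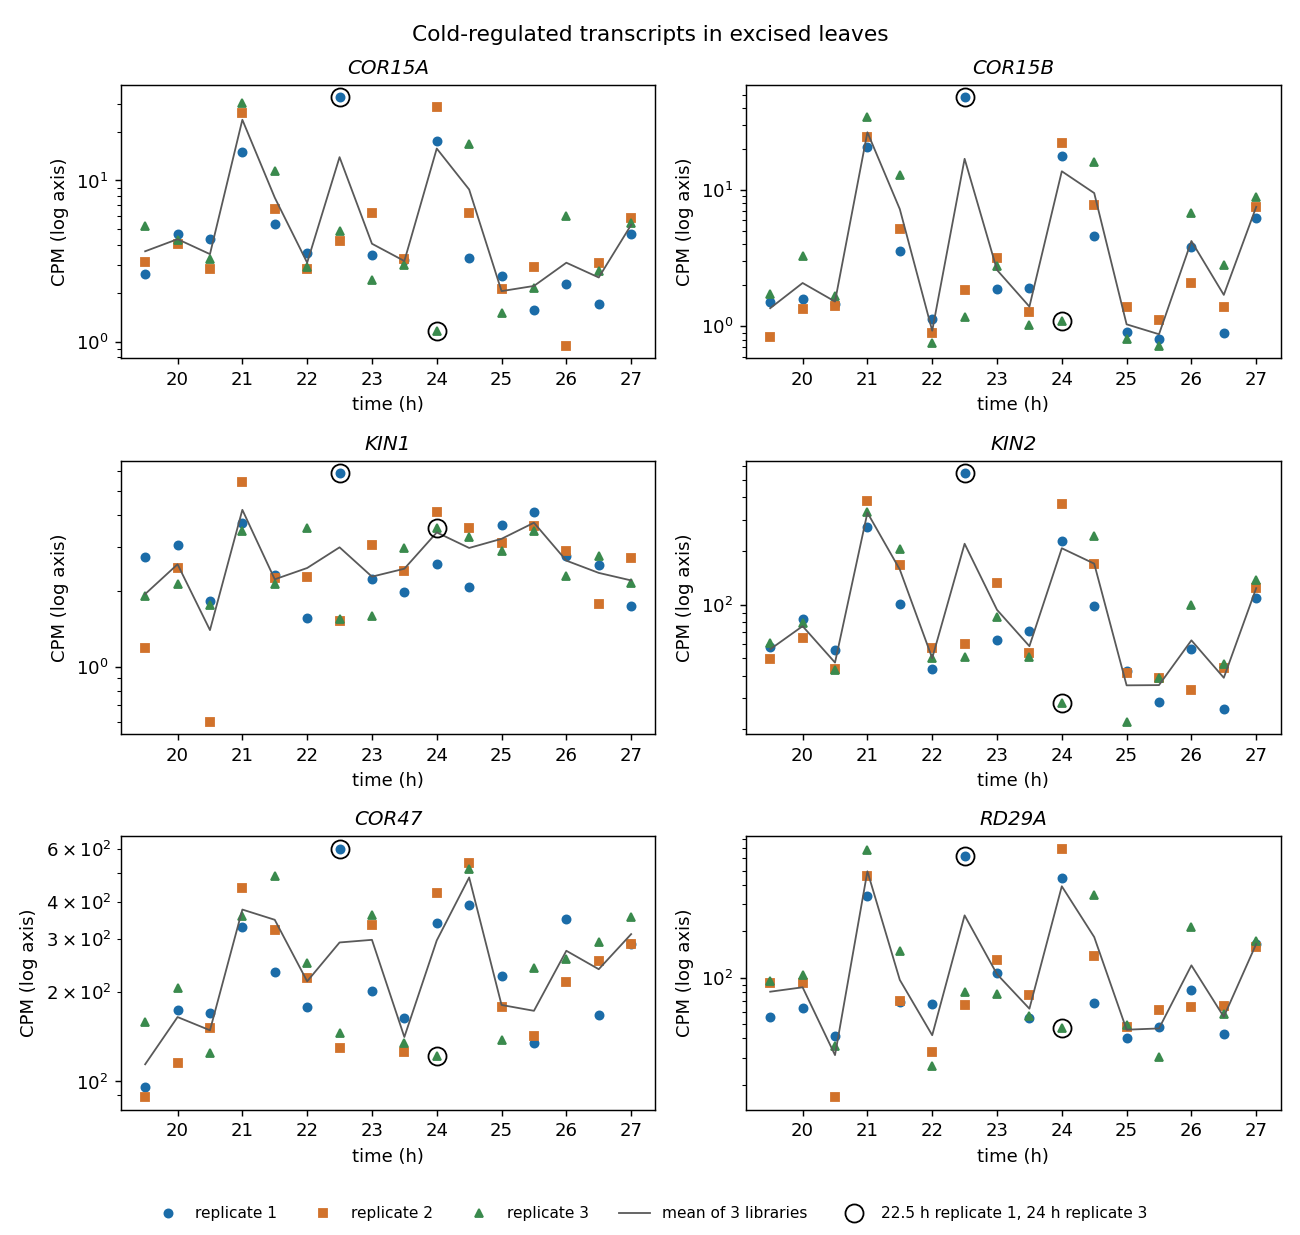
CPM on log axes of the 6 cold-regulated genes (y axes) by time in hours (x axis) in each library, with symbols for the replicates, a line for the mean of 3 libraries, and rings on the 22.5 h replicate 1 and the 24 h replicate 3. The 22.5 h replicate 1 has the highest value of *COR15A*, *COR15B*, *KIN1*, *KIN2* and *COR47*, and the *RD29A* mean is highest at 21 h.

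The 2 libraries that stand apart differed from their partners in most of these genes. In the 22.5 h replicate 1, *KIN2* had 548 CPM, with 60.3 and 51 CPM in the other libraries of that time, and *CBF2* had 8.39 CPM, with 0.193 and 0.32 CPM. The 8 genes other than *ICE1* and *KIN1* were 4.39 to 32.8 times the mean of the other 2 libraries. *KIN1* was also above both, at 3.86 times their mean, and *ICE1* was below both, at 0.84 of it. In the 24 h replicate 3 the 8 genes other than *ICE1* and *KIN1* were below both partners, at 0.0274 to 0.318 of their mean. *KIN1* lay between its partners there. The calls at 22.5 h against 22 h (*CBF3*, *COR15B* and *RD29A*, with 0.347% of all genes called higher) include the 22.5 h replicate 1, and none of the 10 genes was called at that step without the 2 libraries (0.706% of all genes). In that fit *CBF2*, *CBF3* and *COR47* rose at 23 h against 22.5 h (log2 2.76, 2.18 and 1.16), against 4.96% of all genes. Other time points were uneven too, as replicate 3 was the highest for 9 of the 10 genes at 21.5 h.

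Over all 15 half-hour steps, 11 of 150 gene steps rose and 5 fell (1.29% of all gene steps in each direction). There were 32 rises and 26 falls without the 2 libraries (3.57% and 3.97%). Leaving out the 22.5 h replicate 1 alone gave 23 and 15, and leaving out the 24 h replicate 3 alone gave 22 and 11. Leaving out the 22.5 h replicate 2 or 3 gave 17 or 18 rises and 10 or 11 falls. Rises were 5 to 7 without the 20.5 h replicate 1 or 2 or the 21 h replicate 1 or 3, and falls were 1 to 3 without any of 26 other libraries. For these single-library fits the shares of all gene steps are not given here, so the counts cannot be read as particular to the 10 genes.

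**Figure D5:**
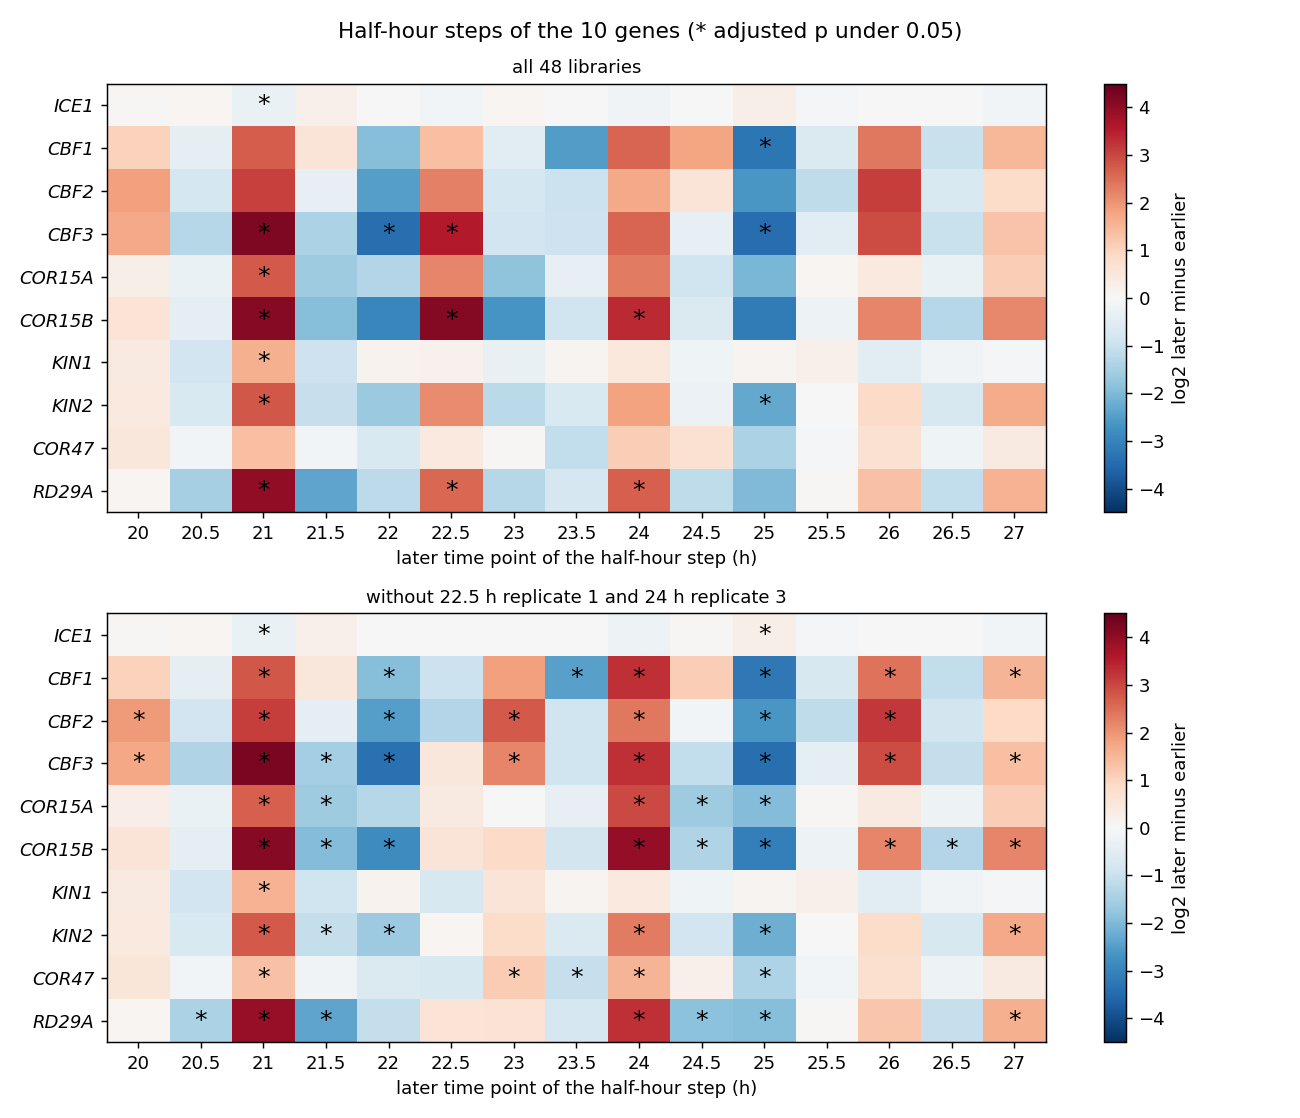
Log2 differences of the 10 genes (rows) at each half-hour step (x axis, later time point in hours), from all 48 libraries (above) and from those left when the 22.5 h replicate 1 and 24 h replicate 3 were dropped (below). Asterisks mark adjusted p under 0.05, with 11 rises and 5 falls above and 32 rises and 26 falls below.

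The last time point was compared with the first to see how far the levels at 27 h lay from those at 19.5 h. *CBF1* had 1.72, 1.89 and 3.03 CPM at 27 h, against 0, 0.306 and 0.159 CPM at 19.5 h (log2 3.76, SE 0.95, adjusted p = 0.00304). *CBF2* (log2 3.48, SE 0.967, adjusted p = 0.00645) and *CBF3* (log2 3.10, SE 0.941, adjusted p = 0.0122) were higher as well. Among the targets *COR15B* had 6.19, 7.49 and 8.88 CPM at 27 h, against 1.51, 0.841 and 1.72 CPM at 19.5 h (log2 2.48, SE 0.895, adjusted p = 0.0341). *COR47* had 289, 290 and 356 CPM at 27 h, against 95.8, 88.4 and 158 CPM at 19.5 h (log2 1.46, SE 0.422, adjusted p = 0.00891). These 5 genes rose, against 13.6% of all genes, and none fell (16.3%). With the 2 libraries left out 6 rose (15.3%), with *KIN2* added, and none fell (17.9%). Leaving out the 19.5 h replicate 3 reduced the count to 3, with no share of all genes given for that fit. *RD29A* had 165, 159 and 173 CPM at 27 h, against 55.1, 91.8 and 95.5 CPM at 19.5 h, and *KIN2* 109, 124 and 138 CPM at 27 h, against 58.1, 49.7 and 60.7 CPM at 19.5 h. Neither was called with all libraries (adjusted p = 0.263 and 0.164) although the libraries did not overlap. In all, 7 of the 10 genes had every 27 h library above every 19.5 h library (24.2% of all genes) and none below (24.9%). A straight line through all time points rose for *CBF1* (log2 1.62 over the window, SE 0.532, adjusted p = 0.0108) and *COR47* (log2 0.59, SE 0.239, adjusted p = 0.037), 2 of 10 genes beside 27.9% of all genes, and fell for none (27.1%). With the 2 libraries left out it rose for 4 (29.4%) and fell for 2 (28.7%), *COR15A* and *KIN2*. Leaving out 1 library at a time gave 1 rising gene for 10 libraries and 5 without the 22.5 h replicate 1, the *COR47* line being the one lost in those 10. A falling line appeared without any 1 of 6 libraries. No share of all genes is given for these fits either.

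The order of the levels per kilobase of annotated exon, which allows genes to be compared, was led by 3 targets, and it depended in part on the peaks. By the mean over all libraries *KIN2* had 147 CPM per kilobase, *COR47* 109 and *RD29A* 53.2. By the median *COR47* came first with 96.5, before *KIN2* with 80.6 and *RD29A* with 26.2. *ICE1* was next by both (mean 9.41, median 9.55 CPM per kilobase). *COR15A*, *COR15B* and *KIN1* had means of 4.22, 3.91 and 3.25 and medians of 2.22, 1.17 and 3.08, so that *KIN1* was last of them by the mean and first by the median. The *CBF* genes came last, with means of 2.49 (*CBF3*), 1.92 (*CBF2*) and 1.01 (*CBF1*) and medians of 1.13, 0.944 and 0.614. The neighbours *COR15A* and *COR15B* were closer in their means per kilobase (4.22 and 3.91) than in their medians (2.22 and 1.17). Their median coefficient of variation within a time point was 31.7% and 33.2%, and no test compared their levels.

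*KIN1* and *KIN2* are 892 bases apart and 95% identical in their coding sequence, with 58 identical bases in a row. *KIN1* nevertheless stayed between 0.603 and 5.9 CPM while *KIN2* ranged from 22 to 548 CPM. Reads from the shared run may have been assigned to neither or to the wrong copy, so the low *KIN1* values are uncertain. *COR15A* and *COR15B* are annotated 7 bases apart and are 82.6% identical. *COR15A* changed less, with a highest time point mean 11.6 times its lowest, than *COR15B*, at 30.3 times. *COR15B* also overlaps AT2G42520 on the opposite strand by 468 bases, and the strand setting of the counting is not given in the sources used here. AT2G42520 had 42.3, 41.1 and 45.7 CPM at 21 h, against 29.6, 27.1 and 31.4 CPM at 20.5 h.

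Over the 48 libraries the *CBF* genes and their targets other than *KIN1* were high and low together. Pearson's r of log2(CPM + 1) lay between 0.819 and 0.944 among *CBF1*, *CBF2* and *CBF3*, and between 0.59 and 0.953 for these with the 5 targets other than *KIN1*. The highest was *CBF3* with *COR15B* (r = 0.953, Spearman's rho = 0.883, r = 0.948 without the 2 libraries farthest from the *CBF3* median). *COR47* was closest to *CBF1* (r = 0.926, rho = 0.908), whereas *RD29A* was closer to *CBF3* (r = 0.894, rho = 0.818) than to *CBF1* (r = 0.617, rho = 0.621). *KIN1* reached no more than r = 0.417 and rho = 0.284 with any of the 8 other *CBF* and target genes. For *ICE1*, r was between -0.654 and -0.286 with the 9 others. These values describe 48 libraries that share 16 sampling times, a depth and a scaling, and no test was made of them. Of 11456 other genes above 10 CPM, those whose log2 level was most like the mean of the 3 *CBF* genes were AT4G32340 (r = 0.963), *RS40* (r = 0.961), AT3G17020 (r = 0.95), *LZF1* (r = 0.949) and AT3G26580 (r = 0.944). *RS40*, an arginine and serine-rich splicing factor gene, is the next annotated gene 1501 bases beyond *CBF1*, on the other strand. *LZF1* encodes a B-box protein of light signalling. The genes most like the mean of the 6 targets were *ACD32.1* (r = 0.957), AT4G30650 (r = 0.935), *ERD7* (r = 0.933), AT4G30660 (r = 0.918) and *XBAT31* (r = 0.917). *ERD7* was first described as an early dehydration-responsive gene.

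Among genes known to act on *CBF* expression, clock genes gave the calls at 21 h. Of 8 activators, 6 differed between time points (63.8% of all genes did), and at 21 h against 20.5 h none rose and 2 fell (5.12% and 5.23% of all genes, median log2 -0.06). These counts were equal with the 2 libraries left out. The 2 were the morning MYB factors *LHY* and *CCA1*. *LHY* had 37.2, 34.6 and 27.9 CPM at 21 h, against 274, 220 and 218 CPM at 20.5 h (log2 -2.84, adjusted p = 0.0123, edgeR). *CCA1* had 50.7, 39.7 and 34.9 CPM at 21 h, against 124, 119 and 146 CPM at 20.5 h (log2 -1.65, adjusted p = 0.0429). Both were low in the 21 h libraries, in which the *CBF* transcripts were high. The calmodulin-binding factor *CAMTA3*, which binds the *CBF2* promoter, had a log2 difference of 0.14 at this step (adjusted p = 0.536) and rose by 0.48 along the line over the window (adjusted p = 6.71e-08). *CAMTA1* also rose along the line (log2 0.28, adjusted p = 0.000118).

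Of 11 repressors of *CBF* expression, 9 differed between time points (63.8% of all genes), and at 21 h against 20.5 h 1 rose (5.12%) and none fell (5.23%). With the 2 libraries left out, 10 differed (70.5%) and 4 rose (8.61%). The riser was the clock regulator *PRR5*, with 13.7, 16.2 and 16.8 CPM at 21 h, against 2.77, 2.54 and 2.83 CPM at 20.5 h (log2 2.52, adjusted p = 0.0356). At 24 h *PRR5* had 13.3 and 13.9 CPM in replicates 1 and 2 and 2.56 CPM in replicate 3, and *LHY* had 36.8 and 29.5 CPM in replicates 1 and 2 and 249.6 CPM in replicate 3. The 24 h replicate 3 thus stood apart in clock transcripts as it did in the *CBF* pathway, and so did the 22.5 h replicate 1. In that library *PRR5* had 35.8 CPM, with 2.15 and 2.59 CPM in replicates 2 and 3 of 22.5 h. *LHY* had 21.9 CPM there, with 331 and 347 CPM in replicates 2 and 3. The clock genes *TOC1*, *PRR7* and *PRR9* had log2 differences of 0.71, 0.81 and 1.5 at 21 h against 20.5 h, which were not called (adjusted p = 0.0694, 0.196 and 0.101). All 4 were higher at 27 h than at 19.5 h (log2 3.47 for *PRR5*, 0.92 for *TOC1*, 1.48 for *PRR7* and 1.74 for *PRR9*, adjusted p from 0.000381 to 0.0112).

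Other cold-regulated genes followed the 6 targets in part. Of 13, 12 passed the filter, 10 differed between time points (63.8% of all genes) and 6 rose at 21 h against 20.5 h (5.12% of all genes, median log2 1.11 beside -0.0126 over all genes). With the 2 libraries left out, 11 differed (70.5%) and 7 rose (8.61%). The dehydrin *ERD14* had 547, 615 and 560 CPM at 21 h, against 262, 248 and 293 CPM at 20.5 h (log2 1.1, adjusted p = 0.014). AT4G33980 (COR28), a cold-induced and clock-linked gene, rose at this step (log2 2.46, adjusted p = 0.0377) and was higher at 27 h than at 19.5 h (log2 2.60, adjusted p = 0.00159). Its relative *COR27* and the dehydrin *XERO2* had log2 differences of 1.43 and 1.34 at 21 h (adjusted p = 0.175 and 0.212). Over the whole list 4 genes were higher (13.6% of all genes) and 1 lower (16.3%) at 27 h than at 19.5 h, or 7 (15.3%) and 1 (17.9%) with the 2 libraries left out.

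For the lists in this paragraph, the shares of all genes were 63.8% for any difference, and 5.12% rising and 5.23% falling at 21 h. With the 2 libraries left out they were 70.5%, 8.61% and 9.92%. Of 5 *CBF* relatives, *CBF4*, *DDF1* and *DDF2* did not pass the filter. Both others differed between time points, and none was called at 21 h (1 rose with the 2 libraries left out). *DREB2A* and *DREB2B*, factors of the drought and heat response that bind the same element, had log2 differences of 0.999 and 1.41 at 21 h (adjusted p = 0.141 and 0.0935), and both were higher at 27 h than at 19.5 h (log2 1.16 and 2.05, adjusted p = 0.0156 and 0.0012). Of 4 transcription factors of the first cold wave, *ZAT12* and *RAV1* differed between time points (adjusted p = 0.0218 and 0.0445) and *ZAT10* and *CZF1* did not pass (adjusted p = 0.126 and 0.28). With the 2 libraries left out 1 of the 4 differed. None of the 4 was called at 21 h, and their median log2 difference was -0.61. Of 6 abscisic acid response markers, *RD29B*, the drought-responsive neighbour of *RD29A*, and *ABI5* did not pass the filter. Of the 4 tested, 3 differed between time points, and at 21 h none rose and 1 fell (1 and 1 with the 2 libraries left out). *HAB1*, a phosphatase of the abscisic acid pathway, fell at 21 h (log2 -0.88, adjusted p = 0.046), and *NCED3*, an enzyme of abscisic acid synthesis, had a log2 difference of 0.91 (adjusted p = 0.214). *ABF3* had a log2 difference of -0.41 and the proline synthesis gene *P5CS1* one of -0.99 (adjusted p = 0.282 and 0.451).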

How the data were processed

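RNA was sequenced from excised 4th rosette leaves at 16 time points with 3 replicates each (48 libraries), and times and replicate numbers were taken from the sample labels. The deposited values are raw whole-number counts for 34262 genes, which the authors obtained with HTSeq from STAR alignments to TAIR10 after a FastQC check. The strand setting, annotation release and tool versions are not stated in the sources used. A further 1 column, a row number, was not used.

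After TMM scaling, the 17568 genes averaging 1 CPM or more were tested in R 4.3.3 with the quasi-likelihood F test of edgeR 4.0.16, with Benjamini-Hochberg adjustment over all genes (and over all 15 steps for half-hour steps) at a threshold of 0.05. As in the study's methods, the replicate number was a factor. Time entered as 15 orthonormal terms: a line, a curve, 6 terms for periods of 2 to 5 h and 7 for faster variation, leaving 30 residual degrees of freedom. CPM are scaled by TMM, and ± is the SD. The scripts were tested on simulated data. Replicates differed from each other with a chi-square of at least 7.78 for each degree of freedom, so no library was taken as a copy of another.

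Loci, exons and sequences were taken from RefSeq's TAIR10.1 by locus identifier. COR28 is named by its locus since that table gives it no such symbol. The members and gene lists were chosen with earlier results of these data known. Genes named are the 10 members, up to 4 per pathway list with the smallest p for any difference between time points, and the 5 genes most like the *CBF* and the target means. *CBF4*, *DDF1*, *DDF2*, *RD29B*, *ABI5* and the root markers *RHD6* and *COBL9* are named as untested. *PYK10* is named as the root marker that was tested. Alternatives were DESeq2 1.42.0, limma-voom (limma 3.58.1), DESeq2 size factors, library totals, no filter, a filter at 5 CPM, no replicate factor, and leaving out replicates, libraries, time points or the 2 libraries that stand apart. Intervals and floors cover counting error only.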

Additional observations from a re-analysis of the deposited data

How the results depend on the processing

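With DESeq2 size factors no count of the 10 genes moved by more than 1.5 times. Library totals gave 5 rising lines in place of 2, and moved the median line of all genes to a log2 of 0.324 (0.0126 with TMM) and their median difference between 27 h and 19.5 h to 0.177 (0.00123 with TMM). Of all genes 11019 then rose and 1635 fell along the line (4897 and 4765 with TMM), and 4751 were higher and 1606 lower at 27 h (2381 and 2867 with TMM). Without a filter 2 steps fell in place of 5. The filter at 5 CPM, which removes the *CBF* genes and *KIN1*, gave 1 rising line, 2 genes with 2 to 5 h variation, 3 falling steps and 2 genes higher at 27 h than at 19.5 h. limma-voom called 1 gene for 2 to 5 h variation and 4 rising steps, and DESeq2 called 8 genes, 23 rising and 13 falling steps and 1 falling line. Dropping both the 22.5 h replicate 1 and 24 h replicate 3 gave 4 rising and 2 falling lines, 9 genes with 2 to 5 h variation, 32 rising and 26 falling steps, and 6 genes higher at 27 h than at 19.5 h. *CBF2* and *CBF3* at 23 h against 22.5 h were then reversed (log2 2.76 and 2.18), as was *CBF2* without the 22.5 h replicate 1 alone (log2 2.73). The 22.5 h replicate 1 belongs to that step. The other causes were not tested. Leaving out a replicate number gave log2 differences from -1.64 to 2.97 for *CBF2* and from -1.56 to 2.28 for *CBF3* at that step.

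Leaving out 1 library, time point or replicate number at a time gave 1 to 10 genes with any difference, 0 to 5 rising and 0 to 2 falling lines, 0 to 9 genes with 2 to 5 h variation, 0 to 10 with faster variation, 0 to 23 rising and 0 to 15 falling steps, and 1 to 5 genes higher and 0 lower at 27 h than at 19.5 h. Replicate 2 mattered most, since leaving it out left 1 gene with any difference and 0 with 2 to 5 h or faster variation.

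Without the replicate block 8 steps fell in place of 5, and no other count of the 10 genes moved by over 1.5 times, while 1808 of all genes had 2 to 5 h variation in place of 1152. That count was 703 without a filter and 3294 with DESeq2, which called 6048 rising and 6228 falling steps over all genes in place of 3396 and 3403. Deviations from the time point means correlated at -0.0373 on average between libraries of the same replicate number (360 pairs) and 0.0178 between those of different numbers (720 pairs). Single pairs ranged from -0.764 to 0.773 and from -0.77 to 0.772. These averages therefore cannot show whether libraries of a number shared plants, a plate or a batch at some of the times.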
